A study of Mus musculus with 12 samples.

Results

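The comparison described here is between 3 tumors from mice given anti-PD-1 antibody together with palbociclib and 3 tumors from mice given palbociclib alone, 6 of the 12 tumors in the series, and it addresses what anti-PD-1 added while CDK4/6 was inhibited. The tumors were chosen by their treatment labels. All were tumors of LLC1-shLkb1 cells in C57BL/6 mice. The study grew such tumors under the skin and in the left chest, and its RNA sequencing methods do not name the site. LLC1 is a mouse Lewis lung carcinoma line, and in these cells a short hairpin RNA knocks down Lkb1 (gene symbol Stk11), so that every arm, controls included, carried the knockdown in an otherwise immunocompetent host. The study's methods describe its mice in general as young adults of both sexes, the labels give neither sex, age nor cage for a tumor, and the Y-linked genes Ddx3y and Kdm5d were listed at 0 in all 12 tumors, which shows no male host tissue. Palbociclib was given by mouth and anti-PD-1 by intraperitoneal injection over repeated weekly cycles, and the vehicle arm received control immunoglobulin. The other 6 tumors, 3 given anti-PD-1 alone and 3 given vehicle, entered the statistical model and served as reference levels.

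Each tumor was measured by bulk RNA sequencing and is given as FPKM, fragments scaled to transcript length and to the mapped total, for 34678 gene symbols. Of these, 21733 were above 0 in at least 1 of the 6 tumors and 11235 averaged 1 FPKM or more across them. Those 11235 genes were tested with limma, a linear model fitted to all genes at once, on log2(FPKM + 0.1), and p-values were adjusted over all of them by the Benjamini-Hochberg method. A log2 difference given below is combination minus palbociclib on that scale, which understates differences of low genes, and error is the standard error (SE) of the model unless an SD is named. The labels number the replicates without saying that each is a separate mouse, so the p-values measure the spread between these tumors, which may be partly technical. The depth estimated from the smallest FPKM steps was 14900000 to 17200000 fragments in the 6 tumors. With 3 tumors per arm, the 95% interval of a log2 difference had a median half-width of 0.344 over the genes tested. In bulk tumors fewer cells of a type and less RNA per cell cannot be told apart.

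PD-1 is an inhibitory receptor of activated T cells, and antibodies against it release T cells from that inhibition. Palbociclib inhibits CDK4 and CDK6, the kinases that together with D-type cyclins phosphorylate the retinoblastoma protein RB and let cells enter S phase. Type I interferons signal through the receptor IFNAR1/IFNAR2 to a transcription factor complex with STAT2 and IRF9, which binds the interferon-stimulated response element (ISRE) and drives antiviral and antigen presentation genes, whereas interferon gamma acts mainly at gamma-activated sites (GAS).

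Because the type I interferon-stimulated genes were the group with the clearest difference below, their promoters are shown first. The motif searched was TTTC, any 2 bases and TTTC again, on either strand within 250 bases before the transcription start, with RefSeq promoters on GRCm38.p6 matched by gene symbol. For the 1646 tested symbols with several promoters only the first listed was searched, and the others were not tested. Of 47 tested genes on the type I interferon-stimulated list, 34 had a promoter in the table and 14 of these (41.2%) held the motif, against 230 (2.75%) of the 8372 promoters of all tested genes. The 5 list members with the smallest p among those with a motif in the last 150 bases before the start are printed 5′ to 3′ on the strand of the gene, with the motif in capitals (in reverse orientation it reads GAAA, any 2 bases and GAAA, and 2 overlapping motifs form 1 run of capitals).
Trim30a (chr7:104465194-104465343, minus strand): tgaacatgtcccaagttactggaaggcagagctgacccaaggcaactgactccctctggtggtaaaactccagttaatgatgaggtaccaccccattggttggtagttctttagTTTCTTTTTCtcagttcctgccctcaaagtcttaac
Oas3 (chr5:120777660-120777809, minus strand): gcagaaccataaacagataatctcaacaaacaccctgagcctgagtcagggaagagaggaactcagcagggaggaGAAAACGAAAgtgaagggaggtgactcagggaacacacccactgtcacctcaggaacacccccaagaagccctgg
Oas1g (chr5:120887614-120887763, minus strand): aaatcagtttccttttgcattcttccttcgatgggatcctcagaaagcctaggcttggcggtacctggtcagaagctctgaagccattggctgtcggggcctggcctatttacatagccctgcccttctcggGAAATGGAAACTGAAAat
Oas1a (chr5:120907526-120907675, minus strand): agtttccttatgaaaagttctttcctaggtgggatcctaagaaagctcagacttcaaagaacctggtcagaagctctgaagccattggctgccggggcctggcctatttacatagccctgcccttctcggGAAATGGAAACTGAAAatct
Rsad2 (chr12:26456453-26456602, minus strand): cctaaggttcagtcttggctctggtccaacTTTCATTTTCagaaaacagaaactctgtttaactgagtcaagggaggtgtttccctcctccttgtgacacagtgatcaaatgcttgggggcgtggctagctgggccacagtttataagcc
The motif was also in 11 of 18 promoters (61.1%) of the interferon gamma signalling list, and the palindromic GAS motif TTCNNNGAA was in 44.4% of those, in 14.7% of the type I list and in 5.91% of all. A match says only that these letters stand in the window.

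Over all genes the arms differed little. The median log2 difference was -0.02, and 2 of 11235 genes passed an adjusted p of 0.05, both lower with the combination (0.0178% of genes tested), while 0 genes (0%) were higher at that threshold. At an unadjusted p under 0.05, limma counted 122 genes higher (1.09%) and 345 lower (3.07%) with the combination. The 3 combination tumors lay all above the 3 palbociclib tumors for 593 genes (5.28%) and all below for 954 (8.49%). The excess of lower over higher calls depended on the scaling, with 236 higher and 257 lower after quantile normalization and 58 higher and 508 lower after rescaling to TPM.

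Ccdc127, a coiled-coil protein gene on chromosome 13, bases 74350309 to 74365783, plus strand (GRCm38, GENCODE M21), had the smallest p of all genes and fell to 41.8% of its palbociclib mean. It measured 2.95, 2.54 and 2.71 FPKM in the combination tumors and 7.04, 6.299 and 6.29 FPKM in the palbociclib tumors, a log2 difference of -1.23 (SE 0.11, adjusted p = 0.00172). The 3 combination tumors lay below all 9 others, since the anti-PD-1 and vehicle tumors had 5.95 to 7.21 FPKM. Gm20559, a predicted gene on chromosome 6, bases 3333194 to 3346128, minus strand, measured 3.06, 3.86 and 3.85 FPKM with the combination and 7.78, 6.28 and 8.32 with palbociclib, a log2 difference of -1.03 (SE 0.13, adjusted p = 0.0364). It was chosen after its values were seen, being 1 of the only 2 genes that passed. Here the palbociclib tumors stood apart, because the anti-PD-1 and vehicle tumors had 3.17 to 3.85 FPKM, as low as the combination. Ccdc127 passed under all 9 alternatives that use the 12 tumors and without each of the 12 tumors in turn, whereas Gm20559 lost its call without any of 11 of them and kept it without palbociclib tumor 2. With the 6 tumors fitted alone neither passed, Ccdc127 having an adjusted p of 0.079 in limma.

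**Figure D1:**
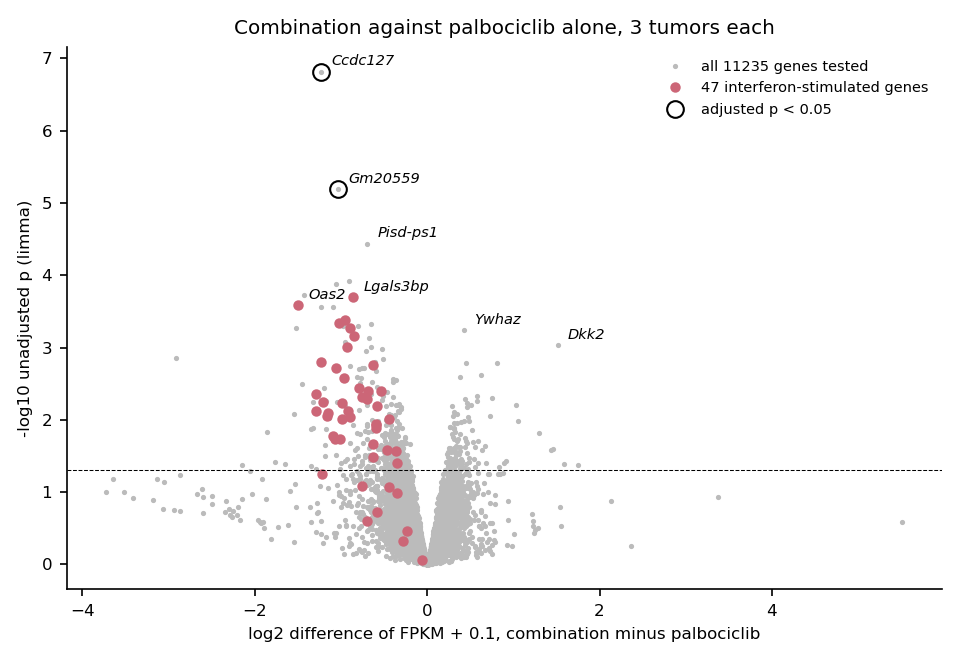
Log2 difference of each of the 11235 genes tested (x axis, combination minus palbociclib) against -log10 of its unadjusted limma p (y axis), with a dashed line at the unadjusted threshold of 0.05. The 47 interferon-stimulated genes in red all lie left of 0, and the 2 circled genes, Ccdc127 and Gm20559, passed the adjusted threshold.

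Type I interferon-stimulated genes were lower with the combination as a group. Of 48 listed genes 47 were tested, Ifi44l being near 0 in every tumor. All 47 had a negative log2 difference, from -1.50 to -0.06, with a median of -0.79 against -0.02 over all genes. At an unadjusted p under 0.05, 38 of 47 (80.9%) were lower, against 3.07% of all genes, and in 30 of 47 the arms did not overlap, against 8.49%. None of the 47 passed the adjusted threshold, the smallest adjusted p being 0.308. Of the 345 genes lower at that unadjusted threshold, 38 were therefore on the list.

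Among the antiviral effectors, Oas2, an oligoadenylate synthetase that activates RNase L in response to double-stranded RNA, differed most. It measured 3.99, 8.91 and 5.43 FPKM with the combination and 20.2, 12.05 and 18.6 with palbociclib, a log2 difference of -1.50 (SE 0.28, unadjusted p = 0.000262), with no overlap. Oasl2, an oligoadenylate synthetase-like gene, measured 9.75, 10.8 and 11.6 FPKM against 24.4, 14.8 and 25.5, a difference of -0.96 (SE 0.19, unadjusted p = 0.000411). Trim30a, a tripartite motif gene whose ISRE motif is printed above, measured 6.97, 6.73 and 8.25 FPKM against 15.3, 9.86 and 16.7, a difference of -0.89 (SE 0.19, unadjusted p = 0.000541). Both separated the arms, as did Xaf1, a proapoptotic interferon target, at 5.99, 6.28 and 6.39 against 12.5, 8.101 and 14.1. Rsad2, which encodes viperin, measured 11.9, 22.6 and 23.4 FPKM against 51.3, 24.3 and 63.03, a difference of -1.21 (SE 0.35, unadjusted p = 0.0057). Its highest combination tumor and its lowest palbociclib tumor were almost level. Ifit3, an RNA-binding antiviral protein gene, measured 21.1, 31.4 and 29.9 FPKM against 58.8, 33.99 and 110.1, a difference of -1.16 (SE 0.36, unadjusted p = 0.00812), and Mx1, a dynamin-like GTPase gene, 2.71, 3.26 and 4.18 FPKM against 7.13, 5.47 and 11.04, a difference of -1.16 (SE 0.36, unadjusted p = 0.00874). In both, palbociclib tumor 3 was the highest of the 6. Oas1a, Oas1b and Oas1g, like Ifit3 and Ifit3b, are related copies whose reads may have been split between them, so their separate values are uncertain.

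The ubiquitin-like modifier Isg15 measured 63.2, 109 and 82.3 FPKM with the combination and 182, 92.5 and 274 with palbociclib, a log2 difference of -1.01 (SE 0.36, unadjusted p = 0.0182), and the arms overlapped because palbociclib tumor 2 lay below combination tumor 2. Usp18, the protease that removes ISG15 from proteins, measured 4.06, 7.84 and 7.45 FPKM against 17.3, 8.17 and 24.9, a difference of -1.29 (SE 0.36, unadjusted p = 0.00443). Lgals3bp, a secreted galectin-3-binding glycoprotein on chromosome 11, bases 118392751 to 118402092, minus strand, measured 37.4, 44.6 and 50.4 FPKM against 92.2, 64.5 and 85.2, a difference of -0.86 (SE 0.16, unadjusted p = 0.0002). Its palbociclib tumors were above all 9 others.

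Sensors and transcription factors of the same list went the same way. Ddx58, which encodes the RNA sensor RIG-I, measured 5.72, 6.73 and 6.53 FPKM against 13.2, 7.44 and 13.5, a log2 difference of -0.79 (SE 0.21, unadjusted p = 0.00362). Dhx58, which encodes its relative LGP2, measured 5.79, 5.41 and 5.84 FPKM against 11.2, 8.45 and 13.7, a difference of -0.93 (SE 0.21, unadjusted p = 0.000999). The arms did not overlap for either. Of the factors that drive the list, Stat2 measured 26.6, 24.3 and 28.3 FPKM against 44.8, 33.1 and 46.1, a difference of -0.63 (SE 0.15, unadjusted p = 0.00177), and Irf7, the amplifier of interferon production, 9.02, 11.7 and 12.3 FPKM against 26.6, 12.8 and 29.9, a difference of -0.98 (SE 0.29, unadjusted p = 0.00583). Neither overlapped.

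**Figure D2:**
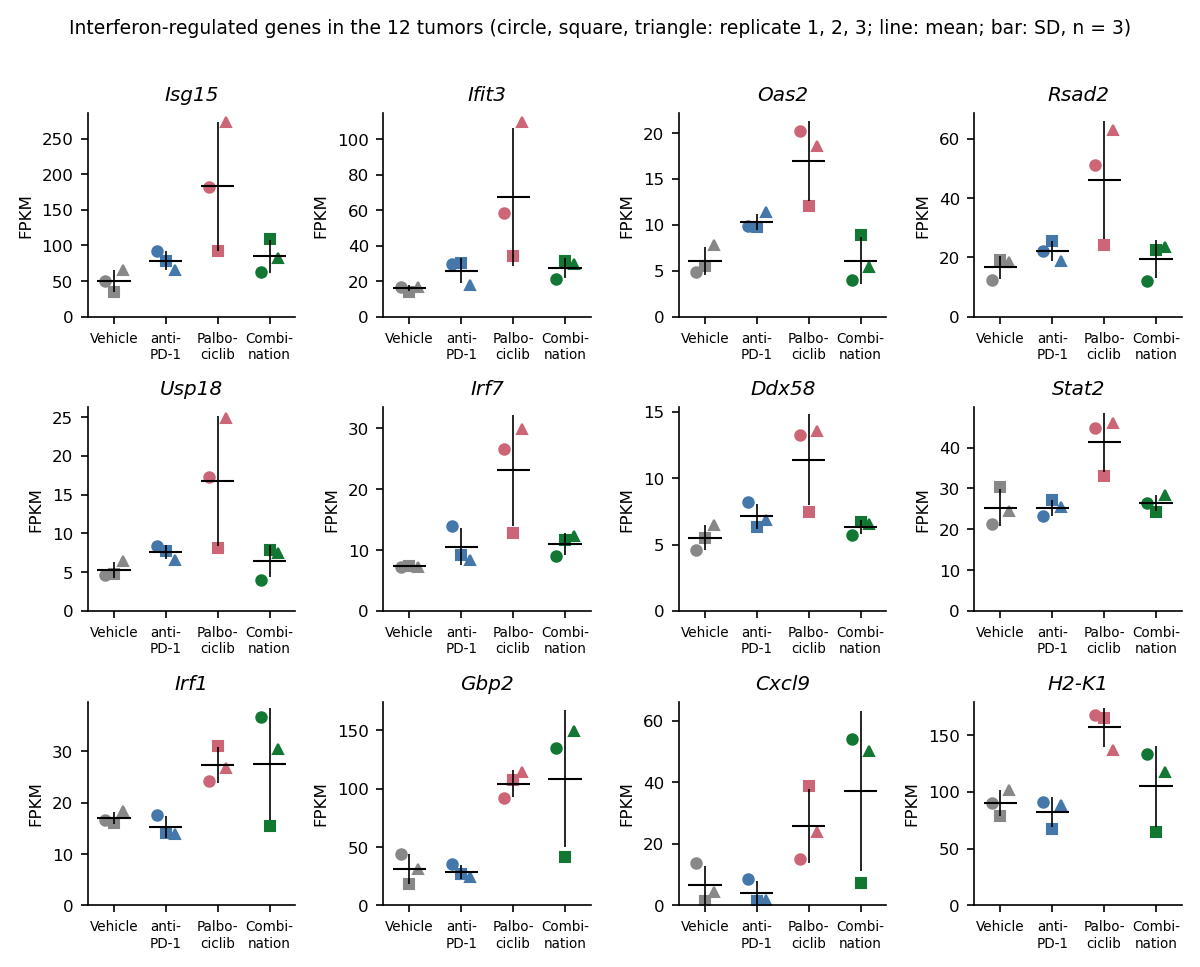
FPKM (y axis, linear from 0) of 12 interferon-regulated genes in each of the 12 tumors, grouped by arm on the x axis, with replicates 1 to 3 as circle, square and triangle, the mean as a line and the SD (n = 3) as a bar. For Isg15, Ifit3, Oas2, Rsad2, Usp18, Irf7, Ddx58 and Stat2 the mean of the combination tumors lies below that of the palbociclib tumors and near or below that of the anti-PD-1 tumors, while Irf1, Gbp2 and Cxcl9 overlap between both arms.

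The spread within the arms mattered to the size of this difference. The mean log2 level of the 47 genes was 3.25, 3.35 and 3.46 in the combination tumors and 4.27, 3.67 and 4.51 in the palbociclib tumors. Palbociclib tumor 2 was the lowest of its arm for 45 of the 47 genes and was also the tumor with skin RNA, with a mean level of the 14 skin and keratin genes of 4.50 against -2.45 to -1.66 in the other 5 tumors. Without it the median difference of the list was -1.02, 41 members were lower at an unadjusted p under 0.05, and 3 of them (Xaf1, Trim30a and Oasl2) passed the adjusted threshold. Without palbociclib tumor 3 the median was -0.65 with 29 such members, and without palbociclib tumor 1 it was -0.75 with 29. Leaving out 1 combination tumor gave medians of -0.84 to -0.76 with 31 to 38 such members, and then 45 to 47 of the 47 differences were negative. With the mean levels of adipocyte, muscle and skin genes as covariates the median was -1.04, 41 members were lower at an unadjusted p under 0.05, and Rsad2, Usp18, Lgals3bp, Cmpk2 and Oasl2 passed the adjusted threshold. Since the skin level was high in palbociclib tumor 2 alone, this fit is not independent of the one without that tumor.

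Against the other arms, the palbociclib tumors were the ones that stood apart. They were above all 9 other tumors for 25 of the 47 genes, against 144 of 11235 genes (1.28%), while the combination tumors were below all 9 others for 0 of the 47, against 148 genes (1.32%). The mean level of the list was 3.45, 3.16 and 3.09 in the anti-PD-1 tumors and 2.86, 2.76 and 2.97 in the vehicle tumors. Over the list the median log2 difference between anti-PD-1 and vehicle was 0.36, and that between palbociclib and vehicle was 1.34. The latter shares the palbociclib tumors with the comparison described here. The interaction, which is combination minus palbociclib less anti-PD-1 minus vehicle, was tested directly. It was negative at an unadjusted p under 0.05 for 36 of the 47 genes, against 379 of all genes (3.37%), and positive for 0, against 294 (2.62%), with a median of -1.12. At an adjusted p under 0.05 it was negative for 2 genes of 11235 (0.0178%), Lgals3bp and Ccdc127, and positive for none.

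Interferon ligands, receptors and genes of nucleic acid sensing are covered by 2 lists added after values had been seen. The lists also hold genes that interferon itself induces, such as Adar, so a lower member need not act upstream of the type I response. Of 15 interferon ligands and receptors 3 were tested, and 1 was lower at an unadjusted p under 0.05 (33.3%, against 3.07% of all genes). It was Il10rb, a subunit shared by the interleukin 10 and interferon lambda receptors, at 6.098, 4.699 and 6.34 FPKM against 7.84, 7.91 and 6.68. Ifnb1 was listed at 0 in 2 combination tumors and 1 palbociclib tumor and reached at most 0.241 FPKM, and Ifna1, Ifna2, Ifna11 and Ifna12 were listed at 0 in all 6 tumors. The receptor gene Ifnar1 measured 8.72, 7.96 and 9.76 FPKM with the combination and 9.105, 10.9 and 8.56 with palbociclib, and Ifnar2 8.37, 7.36 and 8.05 against 7.54, 8.08 and 7.93, both overlapping. Of 15 tested genes of nucleic acid sensing, 3 were lower at an unadjusted p under 0.05 (20%, against 3.07% of all genes), in 4 the combination tumors were all below the palbociclib tumors (26.7%, against 8.49%), and the median difference was -0.15. Tlr3, an endosomal receptor for double-stranded RNA, measured 3.18, 2.89 and 3.23 FPKM against 4.01, 3.57 and 4.36. Trex1, a DNA exonuclease that limits cytosolic DNA, measured 2.57, 1.69 and 4.85 FPKM against 12.9, 11.2 and 3.95, with palbociclib tumor 3 inside the combination range. Adar, an RNA-editing enzyme that is itself induced by interferon, measured 11.6, 12.6 and 12.7 FPKM against 18.6, 13.8 and 16.5, without overlap. Tmem173, which encodes STING, measured 34.4, 25.4 and 32.6 FPKM against 28.2, 31.03 and 31.8 and overlapped.

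Interferon gamma signalling genes overlapped between the arms for the most part. Of 27 tested, 2 were lower at an unadjusted p under 0.05 (7.41% of the list, against 3.07% of all genes), 21 had a negative difference, and the median was -0.16. In 3 of the 27 (11.1%, against 8.49% of all genes) the combination tumors were all below the palbociclib tumors. Gbp9, an interferon-induced GTPase gene, measured 5.85, 2.86 and 6.26 FPKM against 7.41, 7.74 and 7.89, and Cxcl10, a chemokine that attracts CXCR3+ T cells, 17.2, 14.003 and 24.97 against 29.9, 18.9 and 45.8. Irf1, a transcription factor induced by interferon gamma, measured 36.7, 15.5 and 30.4 FPKM against 24.2, 31.1 and 26.8, and Cxcl9, another CXCR3 ligand, 54.004, 7.35 and 50.2 against 15.02, 38.8 and 23.8. For both, combination tumor 2 was the lowest of the 6 tumors and the other combination tumors were above every palbociclib tumor for Cxcl9. Without combination tumor 2 the median difference of the list was 0.24, the opposite sign. Ifng itself was under the filter, at 1.91, 0.145 and 0.9202 FPKM with the combination and 0.307, 0.891 and 0.9502 with palbociclib.

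Of 23 tested genes of MHC class I and peptide loading, 20 had a negative difference and 2 were lower at an unadjusted p under 0.05 (8.70%, against 3.07% of all genes), with a median of -0.22. In 3 of the 23 (13.04%, against 8.49%) the combination tumors were all below the palbociclib tumors. H2-K1, a classical class I heavy chain, measured 133, 64.6 and 117 FPKM against 168, 165 and 137, and Tap2, a subunit of the peptide transporter, 27.3, 23.1 and 32.5 against 33.01, 35.3 and 37.7, both without overlap. The light chain B2m measured 1875, 1034 and 1572 FPKM against 1611, 1412 and 1960.2 and overlapped. Without combination tumor 2 the median was -0.04 and no member was lower at that threshold. Of 8 tested MHC class II genes 0 had an unadjusted p under 0.05. Cd74, the invariant chain, ranged from 32.2 to 296 FPKM within the combination arm alone, and the 95% intervals of the 8 log2 differences had a median half-width of 2.03.

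**Figure D3:**
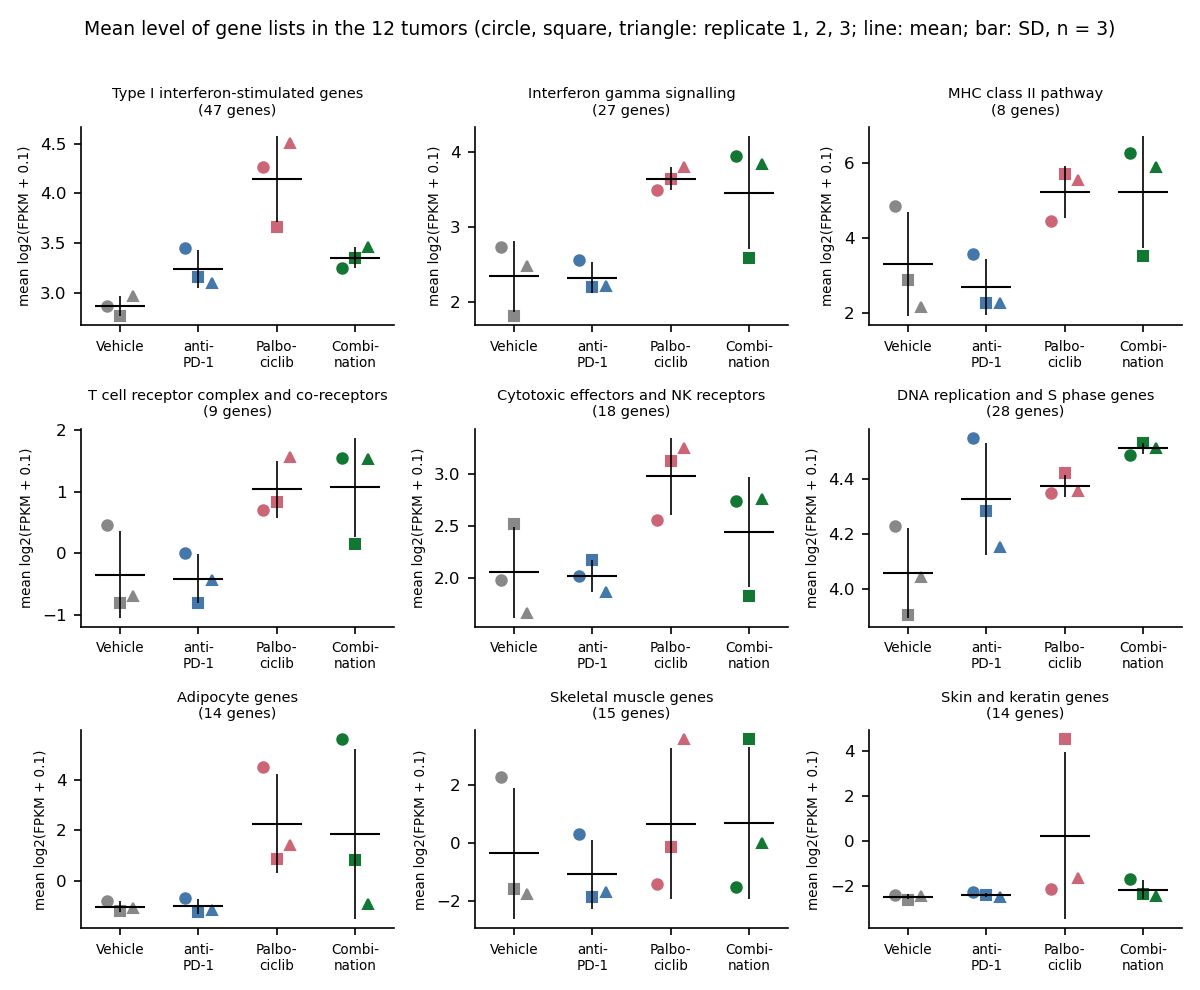
Mean log2(FPKM + 0.1) of 9 gene lists (y axis) in each of the 12 tumors, grouped by arm on the x axis, with the mean as a line and the SD (n = 3) as a bar. Combination tumor 2, the square, is the lowest of its arm for interferon gamma, MHC class II, T cell and cytotoxic genes and the highest for muscle genes, and palbociclib tumor 2 alone is high for skin genes.

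Genes of the T cell receptor complex showed no difference that could be resolved. None of 9 tested genes of the T cell receptor complex and co-receptors had an unadjusted p under 0.05 and none separated the arms, with a median difference of 0.05 and a median half-width of the 95% interval of 1.16. Cd3e, a signalling chain of the receptor complex, measured 2.26, 0.7305 and 1.805 FPKM with the combination and 1.202, 1.26 and 2.14 with palbociclib, and the helper co-receptor Cd4 1.41, 0.247 and 1.93 against 0.696, 1.37 and 1.899. Cd8a, the co-receptor of cytotoxic T cells, was under the filter at 1.095, 0.288 and 1.15 FPKM against 0.457, 0.542 and 1.07, as was the regulatory T cell factor Foxp3, at 0.0608 to 0.1605 FPKM over the 6 tumors. For Cd3e, Cd4 and Cd8a, combination tumor 2 was the lowest of the 6 tumors and the other combination tumors were among the 3 highest. Of 10 regulatory T cell genes 0 passed the filter. Among 7 tested naive and memory T cell genes Cd44, an adhesion receptor of activated T cells that many other cells carry, was lower at an unadjusted p under 0.05, at 13.7, 14.2 and 15.96 FPKM against 21.9, 17.7 and 16.9. That is 1 of 7 (14.3%, against 3.07% of all genes). For Id3 the combination tumors were instead all above the palbociclib tumors (1 of 7, 14.3%, against 5.28% of all genes), without an unadjusted p under 0.05. Of the 7 differences 5 were negative and 2 positive. All 5 tested T cell activation genes had a negative difference and none an unadjusted p under 0.05. Their mean log2 level was 1.61, 1.495 and 1.80 with the combination and 1.89, 1.83 and 1.87 with palbociclib, without overlap, and their median difference of -0.19 stayed between -0.21 and -0.16 with 1 of the 6 tumors left out. Only 5 of the 16 listed genes passed the filter. In 2 of the 5 (40.0%, against 8.49% of all genes) the combination tumors were all below the palbociclib tumors. In the same 2 the palbociclib tumors were above all 9 others, as they were for 1.28% of all genes. These were Nfatc1, a transcription factor of T cell activation that other cells also use, at 3.77, 3.71 and 3.63 FPKM against 4.15, 4.38 and 4.23, and Tnfrsf4, which encodes the costimulatory receptor OX40, at 1.41, 1.06 and 1.31 against 1.61, 1.62 and 1.78.

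Of 18 tested cytotoxic and NK genes, 17 had a negative difference (median -0.47) but 0 had an unadjusted p under 0.05, and in 2 the combination tumors were all below the palbociclib tumors (11.1%, close to the 8.49% of all genes). These were Tnfsf10, which encodes the death ligand TRAIL and is also an interferon target, at 1.97, 1.41 and 2.22 FPKM against 2.62, 2.51 and 4.38, and the NK receptor Klrg1, at 1.15, 1.07 and 1.004 against 1.35, 1.81 and 1.96. Gzmb, which encodes granzyme B, measured 41.9, 15.4 and 31.98 FPKM against 27.2, 44.2 and 31.5, and Prf1, perforin, 11.8, 5.16 and 10.8 against 11.6, 17.1 and 12.02, and both overlapped. Without combination tumor 2 the median of the list was -0.12 and 11 of 18 differences were negative.

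Of 10 tested checkpoint genes only Lgals9, which encodes the TIM-3 ligand galectin-9, was lower at an unadjusted p under 0.05 (10%, against 3.07% of all genes). It measured 21.9, 26.3 and 26.99 FPKM with the combination and 41.1, 34.6 and 55.8 with palbociclib, a log2 difference of -0.78 (SE 0.21, unadjusted p = 0.0031), without overlap. The target of the antibody, Pdcd1, measured 1.94, 0.876 and 1.98 FPKM against 1.37, 1.43 and 2.47, and its ligand Cd274 (PD-L1) 18.4, 7.79 and 17.1 against 16.1, 16.95 and 15.4. Both overlapped. Icam1, an adhesion molecule that binds the T cell integrin LFA-1, measured 9.36, 2.52 and 8.55 FPKM against 4.103, 8.39 and 6.44 and overlapped as well. Of 14 tested leukocyte adhesion genes 1 was lower at an unadjusted p under 0.05 (7.14%, against 3.07% of all genes), the tight junction protein gene F11r, at 1.38, 1.48 and 1.87 FPKM against 2.79, 2.099 and 3.77.

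Myeloid genes gave no call, and the combination tumors were all below the palbociclib tumors in 2 of 9 dendritic cell genes (22.2%, against 8.49% of all genes), 1 of 23 macrophage and monocyte genes (4.35%) and 1 of 15 complement genes (6.67%). Combination tumor 2 was again the lowest of its arm for macrophage and dendritic cell genes. None of 9 dendritic cell, 23 macrophage and monocyte, 11 neutrophil and 15 complement genes had an unadjusted p under 0.05. The dendritic cell lectin Clec10a, at 4.76, 2.14 and 4.07 FPKM against 6.08, 7.98 and 7.56, and the chemokine Ccl22, at 2.45, 1.305 and 2.42 against 3.77, 4.33 and 3.55, did not overlap and were highest with palbociclib among all 4 arms. Ly6c2, a marker of inflammatory monocytes, did not overlap either, at 2.38, 1.76 and 2.802 FPKM against 4.89, 3.61 and 4.29. The neutrophil calprotectin gene S100a9 measured 8.06, 22.2 and 58.7 FPKM against 20.8, 16.5 and 8.04. The median difference of the neutrophil list was 0.52, and without combination tumor 3 it was -0.07. Of 15 T cell and monocyte attracting chemokines, Cxcl10 alone was lower at an unadjusted p under 0.05 (6.67%, against 3.07% of all genes). B cell and plasma cell genes were mostly under the filter, with 4 of 14 tested and none called.

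**Figure D4:**
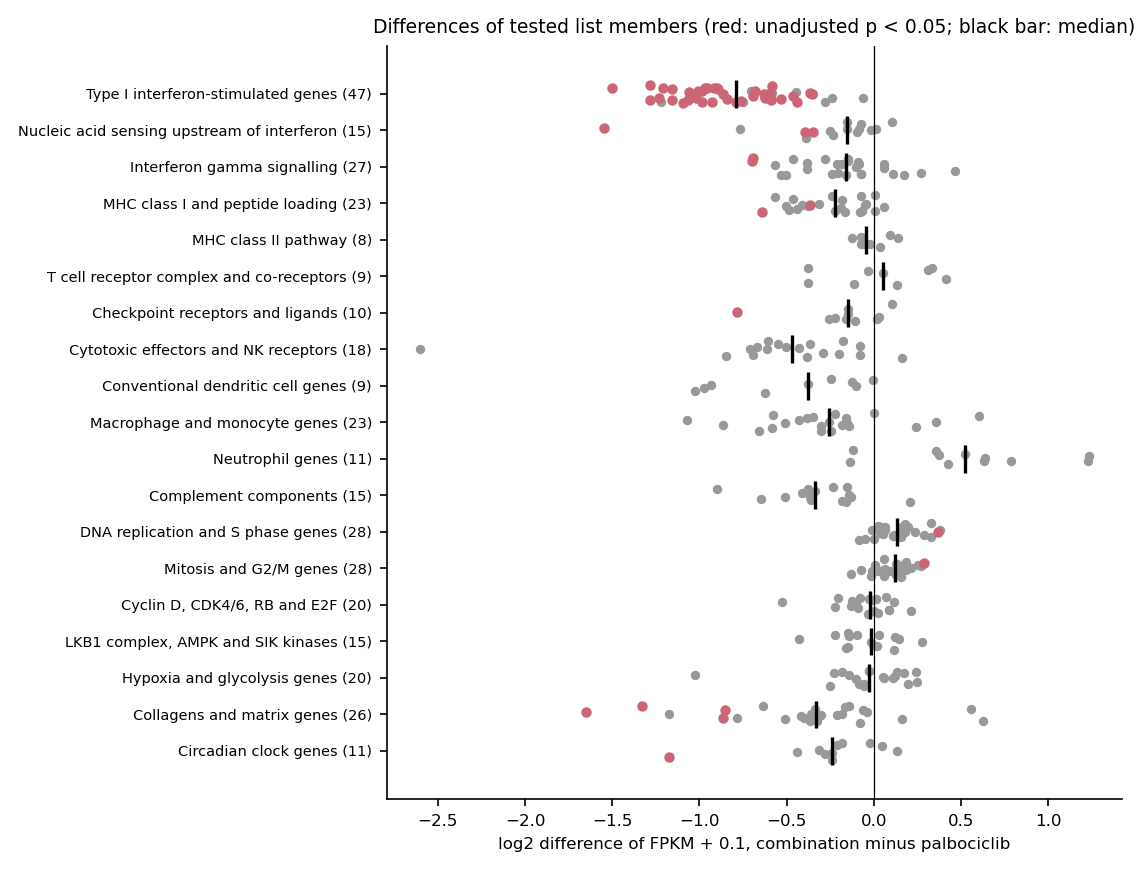
Log2 difference, combination minus palbociclib (x axis), of every tested member of 19 gene lists (y axis, number tested in brackets), with members at an unadjusted p under 0.05 in red and the list median as a black bar. All 47 interferon-stimulated genes lie left of 0 with a median of -0.79, and no other list shown has more than 4 members in red.

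Cell cycle genes, the direct field of CDK4/6 inhibition, were slightly higher with the combination, by amounts that passed no adjusted test. They were not lower with palbociclib alone than with vehicle: the median log2 difference was 0.33 for S phase and 0.37 for mitosis genes. All 28 tested genes of each list were higher with palbociclib in that comparison, which shares the palbociclib tumors. Between anti-PD-1 and vehicle the medians were 0.25 and 0.21, and those of the interaction were -0.17 and -0.14. Of 28 tested genes of DNA replication and S phase, 25 had a positive difference with a median of 0.13. The clamp loader subunit gene Rfc4 alone had an unadjusted p under 0.05 (3.57% of the list, against 1.09% of all genes), and in 11 the combination tumors were all above the palbociclib tumors (39.3%, against 5.28%). The mean log2 level of the 28 genes was 4.49, 4.53 and 4.51 with the combination and 4.35, 4.42 and 4.36 with palbociclib, without overlap and with a smaller spread than in the other arms. Rfc4 measured 21.3, 21.3 and 18.9 FPKM against 14.2, 14.7 and 18.8, and Pcna, the replication clamp, 77.7, 68.5 and 75.3 against 56.04, 59.97 and 60.1. Rfc4 barely separated the arms, while Pcna separated them without a near tie.

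Of 28 tested genes of mitosis and G2/M, 24 had a positive difference with a median of 0.12, in 6 the combination tumors were all above the palbociclib tumors (21.4%, against 5.28% of all genes), and 1, the checkpoint kinase gene Bub1, had an unadjusted p under 0.05 (3.57%, against 1.09%). Bub1 measured 31.7, 27.6 and 23.6 FPKM with the combination and 23.5, 22.8 and 21.2 with palbociclib, and the proliferation marker Mki67 65.1, 68.9 and 64.8 against 62.3, 63.1 and 56.1. These gaps were small next to the range of Mki67 in the other arms, 43.3 to 74.7 FPKM. After rescaling to TPM the medians of both lists stayed positive, at 0.08 for S phase and 0.07 for mitosis, with 20 and 22 of the 28 differences positive. None of 20 tested genes of cyclin D, the CDKs, RB and E2F had an unadjusted p under 0.05, and the median difference was -0.02. The palbociclib target Cdk4 measured 48.9, 58.8 and 61.01 FPKM against 56.7, 56.5 and 58.5, and Ccnd1, cyclin D1, 82.7, 80.4 and 88.3 against 95.4, 101 and 93.7, with the palbociclib tumors above all 9 others. Cdk6 and Rb1 overlapped, and so did Mcm2, a helicase subunit.

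The knocked-down gene Stk11 measured 8.596, 11.4 and 10.3 FPKM with the combination and 9.72, 9.51 and 10.3 with palbociclib. Since all arms carry the hairpin, there was no unmodified tumor to set this against. None of the 15 tested genes of the LKB1 complex and its AMPK and SIK kinases had an unadjusted p under 0.05, nor did any of 20 hypoxia and glycolysis genes. Vegfa, the angiogenic factor, measured 6.17, 6.23 and 5.29 FPKM against 8.295, 5.43 and 4.03.

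Matrix genes were lower in part. Of 26 tested collagens and matrix genes 23 had a negative difference, with a median of -0.33, and 4 were lower at an unadjusted p under 0.05 (15.4%, against 3.07% of all genes). Col18a1, a basement membrane collagen whose cleavage releases endostatin, measured 1.87, 2.74 and 3.36 FPKM against 6.61, 4.47 and 9.905, a log2 difference of -1.33 (SE 0.39, unadjusted p = 0.00562). Col12a1 measured 0.575, 1.304 and 0.562 FPKM against 1.56, 1.33 and 1.49, and Col6a3 6.11, 6.72 and 5.81 against 10.1, 11.5 and 12.4. The arms did not overlap for these 3, although the highest combination value of Col12a1 was almost level with palbociclib tumor 2. The fourth, the collagenase Mmp13, overlapped. The median of the list rested on combination tumor 3, with a mean level of 2.98 against 3.60 to 4.35 in the other 5 tumors, and without it the median was -0.08. Among 9 fibroblast and 13 endothelial genes none had an unadjusted p under 0.05.

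Of 11 tested clock genes, Per1, a repressor of the circadian oscillator, was lower at an unadjusted p under 0.05 (9.09%, against 3.07% of all genes). It measured 4.72, 7.95 and 8.17 FPKM with the combination and 16.4, 12.9 and 17.02 with palbociclib, a log2 difference of -1.17 (SE 0.40, unadjusted p = 0.0135). The combination tumors were below all 9 others, which ranged up to 65.6 FPKM. The hour at which each tumor was collected is not among the labels, and its part in this was not tested.

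The tumors carried different amounts of neighbouring tissue. The mean log2 level of 14 adipocyte genes was 5.59, 0.83 and -0.89 in the combination tumors and 4.48, 0.87 and 1.42 in the palbociclib tumors, and that of 15 skeletal muscle genes -1.50, 3.59 and -0.01 and -1.42, -0.13 and 3.59. Each arm therefore had 1 tumor rich in fat and 1 rich in muscle. The keratin Krt14 measured 0.533, 0 and 0 FPKM with the combination and 0.0702, 178 and 0.378 with palbociclib, so the skin list differed in 1 tumor only, and its median difference of -2.24 was -0.12 without palbociclib tumor 2. Xist, transcribed from the inactive X chromosome, was at 2.23 to 8.17 FPKM in the 6. Of 4 epithelial markers used for cancer cells, Krt8 was at 61.98 to 147 FPKM over the 6 tumors, and Krt18, Epcam and Krt19 were under 1 FPKM in at least 4 of them. The part of these tissues in other results was not tested beyond the covariates and left-out tumors given above.

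The 10 genes with the smallest p in each direction among those whose arms did not overlap are described next, without predicted genes and repeated symbols. None of those higher passed the adjusted threshold. Ywhaz, which encodes the adaptor 14-3-3 zeta, had the smallest p. It measured 22.8, 27.1 and 26.2 FPKM with the combination and 19.1, 18.8 and 18.6 with palbociclib, a log2 difference of 0.42 (SE 0.09, adjusted p = 0.363). The palbociclib tumors were below all 9 others, a pattern that 33 genes (0.294%) showed, among them Ankrd40, an ankyrin repeat gene, at 10.5, 11.6 and 11.3 FPKM against 5.77, 6.903 and 6.28, a difference of 0.81 (SE 0.20, unadjusted p = 0.00166).

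Dkk2, a secreted modulator of Wnt signalling on chromosome 3, bases 132085292 to 132180304, plus strand, differed most in size among those higher. It measured 10.6, 5.36 and 6.25 FPKM with the combination and 2.21, 2.07 and 3.08 with palbociclib, a log2 difference of 1.51 (SE 0.34, unadjusted p = 0.000917), and 1.37, 3.04 and 2.77 with anti-PD-1 and 4.62, 2.96 and 5.18 with vehicle. The combination tumors were above all 9 others, as they were for 124 genes (1.1%), including Tob1, a gene that restrains proliferation, at 8.65, 8.84 and 8.14 FPKM against 6.95, 6.14 and 5.57, and Prmt1, the main protein arginine methyltransferase, at 7.24, 7.53 and 10.2 against 5.98, 5.73 and 4.83. Cuedc2 followed the same pattern, at 35.9, 39.4 and 39.6 FPKM against 32.7, 27.6 and 27.9. Pex5, the receptor for peroxisomal import, measured 9.45, 9.44 and 9.62 FPKM against 6.09, 6.81 and 5.52, and here the combination was at the level of vehicle (9.41, 10.5 and 10.4 FPKM). Myl6b, Tmem74 and the pseudogene Ppp1r2-ps2 completed the 10, with log2 differences of 0.57, 0.76 and 0.44, and the last may share reads with its parent gene.

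Among the 10 lower, Ccdc127 was described above, and 4 belong to the type I interferon-stimulated list (Lgals3bp, Oas2, Oasl2 and Oas1b). Pisd-ps1, a pseudogene related to the phosphatidylserine decarboxylase gene Pisd whose reads it may share, measured 8.096, 9.99 and 8.73 FPKM with the combination and 14.5, 14.4 and 14.7 with palbociclib, a log2 difference of -0.70 (SE 0.11, adjusted p = 0.137). It shared the pattern of Ccdc127, with 12.2 to 15.6 FPKM in the anti-PD-1 and vehicle tumors, so that the combination lay below all 9 others. Sp100, a component of nuclear bodies that has near-identical copies in the mouse, measured 5.23, 5.07 and 5.69 FPKM against 10.8, 8.07 and 11.7, a difference of -0.91 (SE 0.16, adjusted p = 0.301). Ifi203, of the interferon-inducible p200 family, measured 6.702, 6.92 and 7.86 FPKM against 16.04, 11.96 and 17.7, a difference of -1.06 (SE 0.19, adjusted p = 0.301). Hsh2d, an adaptor of T cell signalling, measured 0.838, 1.06 and 0.857 FPKM against 2.19, 1.84 and 2.198, and Trim26, a ubiquitin ligase gene, 6.17, 4.96 and 4.94 against 7.95, 7.96 and 9.33. For Sp100, Ifi203, Hsh2d and Trim26 the palbociclib tumors were above all 9 others. Of these 20 genes, the palbociclib tumors stood apart from the 9 others in 10 and the combination tumors in 6. Over all genes tested, the palbociclib tumors were above the 9 others in 1.28% and below in 0.294%. The combination tumors were above in 1.1% and below in 1.32%. The 20 genes were picked for arms without overlap, which partly fixes such patterns, so the counts are no test against these shares.

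**Figure D5:**
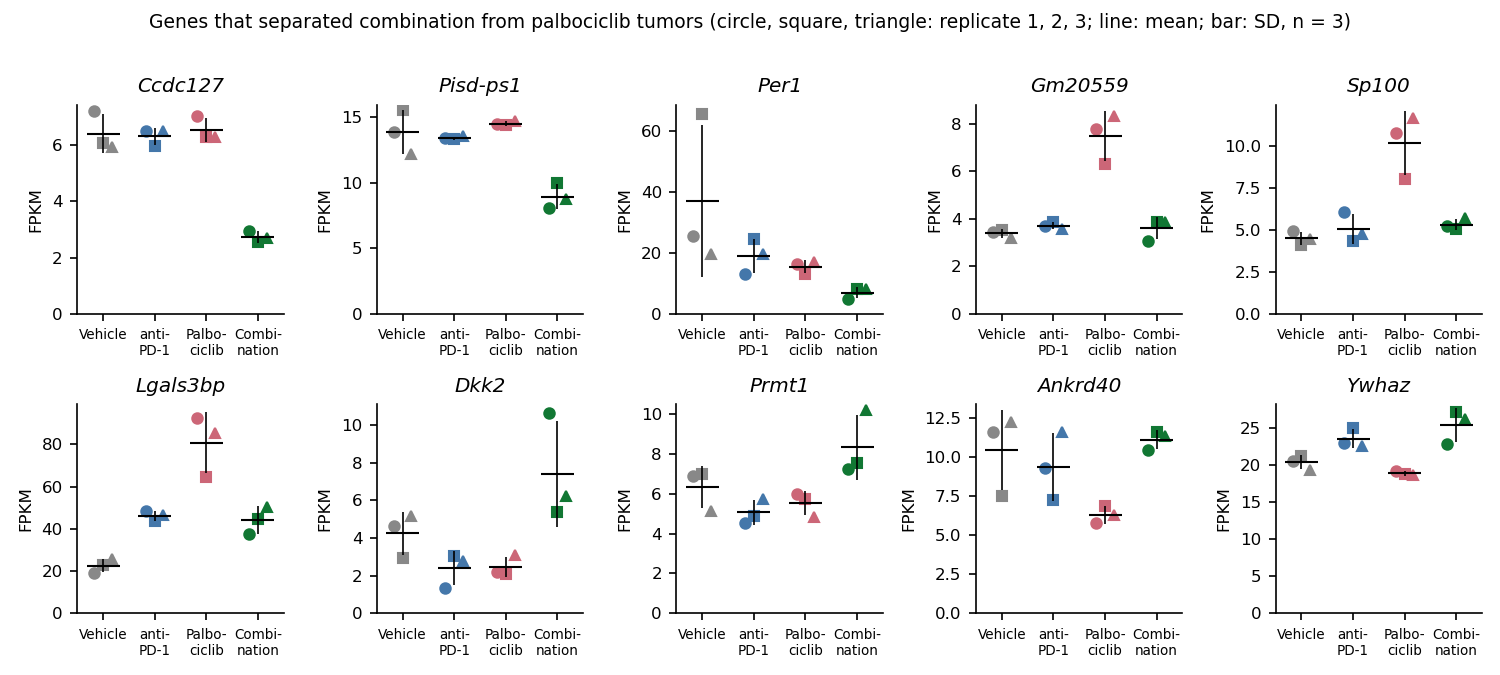
FPKM (y axis, linear from 0) of 10 genes that separated both arms, in each of the 12 tumors grouped by arm on the x axis, with replicates 1 to 3 as circle, square and triangle, the mean as a line and the SD (n = 3) as a bar. In Ccdc127, Pisd-ps1 and Per1 the combination tumors lie below all 9 others, and in Dkk2 and Prmt1 above them. In Gm20559, Sp100 and Lgals3bp the palbociclib tumors lie above all 9 others, and in Ankrd40 and Ywhaz below them. For Lgals3bp the anti-PD-1 and combination tumors also lie above the vehicle tumors.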

How the data were processed

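The deposited values are FPKM per gene symbol for each tumor, 1 table per tumor. Reads were aligned by the authors with HISAT2 to GRCm38/mm10, per the submitters' processing notes, and the counting tool, its annotation and its treatment of strand are not given in the sources used here. FPKM divides by the mapped total, so a few strong genes can lower all others: the 10 strongest genes held 8.21 to 11.8% of the summed FPKM in the 6 tumors. Raw counts were not used here, and depth was estimated from the FPKM step of 1 fragment in genes with 1 transcript.

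Arms came from the treatment labels. All 12 tumors were fitted with 1 mean per arm by limma 3.58.1 (lmFit, eBayes with a trend) in R 4.3.3 on log2(FPKM + 0.1), keeping genes that averaged 1 FPKM or more across the 6 compared, with Benjamini-Hochberg adjustment over 11235 genes and a threshold of 0.05. An exact permutation test of 3 against 3 cannot go below p = 0.1. Genes were named by a rule: the 10 with the smallest p in each direction among those with non-overlapping arms, without predicted models and repeated symbols, in each list up to 6 members with an unadjusted p under 0.05 or non-overlapping arms and the 3 highest in FPKM, and the immune and cell cycle genes the study centred on. Among these the text gives those with a clear role. Ddx58, Dhx58, Ifit3, Irf7, Mx1, Rsad2, Stat2 and Usp18 were added for their roles after values were seen. The comparison, the gene lists and their members were chosen with earlier results of these data known. Alternatives were another pseudocount (1 or 0.01), filter (0.1 or any FPKM above 0), scaling (TPM, quantile), 6 tumors only, no trend, a replicate block, tissue covariates and each tumor left out. The script was tested on simulated data. Coordinates are from GENCODE M21, promoters from RefSeq on GRCm38.p6, matched by symbol. Tables were handled with Python 3.11.15, pandas 2.3.3 and numpy 2.4.6, and plots drawn with matplotlib 3.10.9. A withheld item is not reported here.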

Additional observations from a re-analysis of the deposited data

Results flagged for a closer look

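For 2 genes the difference between combination and palbociclib itself differed from the difference between anti-PD-1 and vehicle, by the limma interaction term with Benjamini-Hochberg adjustment. For Ccdc127 the interaction was -1.21 on the log2 scale (adjusted p = 0.0305). It measured 6.497, 5.96 and 6.497 FPKM with anti-PD-1 and 7.21, 6.07 and 5.95 with vehicle, a level shared with palbociclib, and was lower in all 3 combination tumors. For Lgals3bp the interaction was -1.90 (adjusted p = 0.0305). Its values were 48.4, 43.5 and 46.6 FPKM with anti-PD-1 and 19.3, 22.7 and 25.7 with vehicle, so all 3 anti-PD-1 tumors lay above the vehicle tumors while all 3 combination tumors lay below the palbociclib tumors. These calls were fragile when 1 tumor was left out. Without palbociclib tumor 2, Lgals3bp and Oasl2 passed the threshold for this term, and without vehicle tumor 1 only Ccdc127 did. Without any other single tumor 0 genes passed. With any FPKM above 0 as the filter, Trav3-1 passed in place of Ccdc127.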

How the results depend on the processing

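The count of genes that fell with the combination at an adjusted p of 0.05 (limma, Benjamini-Hochberg), 2 as reported, was small under every alternative and changed with several. It was 1 with a filter of 0.1 FPKM, 1 with quantile normalization, 7 with tissue covariates and 0 with the 6 tumors alone, a fit that has fewer tumors to estimate the spread and that had 268 higher and 572 lower genes at an unadjusted p under 0.05. Leaving out each tumor in turn gave 1 to 5, the highest without palbociclib tumor 2. With any FPKM above 0 as the filter it was 3, with Trav3-1 and Rtn4r in place of Gm20559. No alternative gave a gene higher at that threshold. The interaction passed for 2 genes as reported, for 0 with a filter of 0.1 FPKM, for 4 with tissue covariates and for 0 to 2 with 1 tumor left out. Counts at an unadjusted p under 0.05 were 162 higher and 544 lower with a filter of 0.1 FPKM, 262 and 774 with any FPKM above 0, 185 and 280 with tissue covariates, and 95 to 167 and 237 to 451 with 1 tumor left out. The cause of these shifts was not tested, apart from the number of genes tested, 15572 and 21733 under the lower filters. The median of the type I interferon-stimulated list lay between -1.04 and -0.65 under all 16 alternatives run for it. Without combination tumor 2 the medians for checkpoint, chemokine, adhesion, MHC class II, macrophage, complement and endothelial genes turned positive, at 0.22, 0.26, 0.03, 0.89, 0.12, 0.08 and 0.10 in that order. Medians near 0, among them those of T cell and hypoxia genes, changed sign with other tumors left out. The 27 single genes whose fitted log2 difference is printed kept their sign under every alternative run, whereas 1 or 2 other interferon-stimulated genes did not without combination tumor 2, combination tumor 3 or palbociclib tumor 3.

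Replicate numbers showed no consistent pairing: the deviations of same-numbered combination and palbociclib tumors from their arm means correlated at 0.34, -0.03 and -0.06 over genes. Differently numbered pairs gave -0.21 to 0.25. So few correlations cannot settle whether the numbers pair the mice. With the replicate block 1 gene fell, Ccdc127, and the interaction passed for the same 2 genes.

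Depth limits low genes most: the filter left out Cd8a, Ifng and Foxp3, and the median half-width of the 95% interval was 0.344 with 3 tumors per arm.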

Other observations

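The lists here were chosen after values had been seen and carry no test. The p200 proteins are interferon-inducible DNA and RNA binding proteins. Of 6 tested p200 genes 5 had a negative difference with a median of -0.70, and 4 (Ifi203, Ifi204, Mnda and Mndal) were lower at an unadjusted p under 0.05 (66.7%, against 3.07% of all genes). Ifi204 measured 21.2, 21.9 and 24.7 FPKM with the combination and 44.1, 28.8 and 46.4 with palbociclib, and Mndal 5.81, 4.66 and 6.195 against 9.69, 7.76 and 12.3. These genes are close copies of each other whose reads may have been split between them.

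NRF2 (gene symbol Nfe2l2) drives genes of glutathione and NADPH metabolism. All 15 tested NRF2 targets had a positive difference, with a median of 0.33, and in 6 the combination tumors were all above the palbociclib tumors (40.0%, against 5.28% of all genes). Of the 15, 3 were higher at an unadjusted p under 0.05 (20%, against 1.09%), namely Srxn1, Gsr and G6pdx. Srxn1, which encodes sulfiredoxin, measured 24.9, 26.2 and 31.2 FPKM with the combination and 18.9, 19.7 and 20.6 with palbociclib, and Gsr, glutathione reductase, 76.7, 100.2 and 82.998 against 75.3, 63.6 and 59.8. G6pdx, the first enzyme of the pentose phosphate pathway, measured 53.8, 40.2 and 45.5 FPKM against 31.999, 41.9 and 32.4. The mean level of the list was 4.84, 4.91 and 4.81 in the palbociclib tumors, below all 9 others, and 5.19, 5.14 and 5.08 with anti-PD-1 and 5.12, 4.93 and 5.09 with vehicle. After rescaling to TPM, 13 of the 15 differences were positive.

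A list of nuclear RNAs held the noncoding Malat1, Neat1 and Xist and protein-coding genes, among them Clk1, Clk4, Srsf5 and Son. FPKM per gene does not tell nuclear from cytoplasmic RNA. Of 11 tested members, 10 had a negative difference with a median of -0.39, and 3 were lower at an unadjusted p under 0.05 (27.3%, against 3.07% of all genes). Neat1, the scaffold RNA of paraspeckles, measured 7.51, 7.87 and 2.44 FPKM with the combination and 15.6, 17.7 and 11.2 with palbociclib, and Malat1, an abundant RNA of nuclear speckles, 12.04, 11.6 and 12.9 against 17.8, 23.2 and 17.95. The anti-PD-1 tumors had 27.03, 12.3 and 20.7 FPKM of Malat1 and the vehicle tumors 28.6, 52.1 and 36.5, so the combination had the lowest mean of this RNA among the 4 arms. The part of RNA extraction or quality in these values was not tested.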
